A study of Mus musculus with 2 samples.

Results

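The 10 claudin genes Cldn1, Cldn2, Cldn3, Cldn4, Cldn5, Cldn7, Cldn8, Cldn10, Cldn16 and Cldn19 were followed along the mouse nephron. They were picked by symbol, as 10 of the 32285 genes listed and 10 of 32 claudin symbols. Earlier results of these data were known when they were chosen. The data were single cell RNA sequencing (scRNAseq) of 2 kidneys, in which each captured RNA molecule is marked by a unique molecular identifier (UMI). The control group was 1 uninjured contralateral kidney of a wildtype male C57BL/6J mouse aged 19 weeks, and the labels give it no ischemia. The ischemia group was 1 kidney of the same strain, genotype, sex and age, clamped for 27 min and reperfused for 24 h. The labels do not say whether both kidneys came from the same animal.

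Claudins are membrane proteins of the tight junction that seal the space between neighboring cells or form pores in it. Which claudins a tubule segment makes sets which ions pass between its cells. CLDN2 and the CLDN10 isoforms form pores, CLDN16 and CLDN19 are needed for calcium and magnesium uptake in the thick ascending limb, CLDN4, CLDN7 and CLDN8 are claudins of the distal nephron, and CLDN5 seals endothelium.

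With 1 library per condition, kidney, library and condition cannot be told apart, and no test between conditions was possible. Levels are given as CPM, the UMIs of a gene per 1000000 UMIs of the cells summed, and ratios as ischemia over control. Ranges in parentheses are exact 95% intervals that cover counting error only and not the spread between mice. A gene was called higher or lower in a class past 2-fold, where both libraries together held at least 50 of its UMIs. Levels are compared across classes and libraries within 1 gene and not between genes, since capture differs between transcripts. A 3′ count of this kind also cannot tell transcripts from different starts of 1 gene apart. A difference in CPM of summed cells can come from more cells with the RNA or from more RNA per cell, so the share of cells with a UMI is given beside the main values.

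Kept were 12586 control and 13116 ischemia cells, with 124679362 and 128733541 UMIs and median depths of 3839 and 2138.5 UMIs per cell. The 10 claudins held 61578 control and 60692 ischemia UMIs. Both libraries shared 58 barcodes among the kept cells. Clusters made without the claudins and named from marker lists gave 3932 and 2837 proximal tubule (PT) cells, 87 and 76 thin limb cells and 493 and 486 thick ascending limb (TAL) cells, control first. They also gave 462 and 351 cells of a joint class of distal convoluted and connecting tubules (DCT-CNT), 508 and 438 of the collecting duct, 99 and 72 podocytes and 905 and 1041 endothelial cells (EC). Each of these classes carried at least 6 of its own markers and is meant below as "like" its name. The collecting duct class joined principal and intercalated cells, and its summed level of the DCT-CNT list (30023 and 16160 CPM) was close to that of the DCT-CNT class itself (25907 and 15456 CPM). Cluster 4, with 857 and 746 cells and markers of both TAL and DCT-CNT, and cluster 0, with 4540 and 5819 cells at median depths of 894 and 796 UMIs, stayed unnamed.

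Among the claudins, 2 pairs were neighbors in the genome (GRCm38), and 1 gene had promoters at distant starts, so these sequences are shown before the levels. Cldn3 (ENSMUSG00000070473, chr5:134986214-134987472, plus strand) and Cldn4 (ENSMUSG00000047501, chr5:134945119-134946934, minus strand) lay 39279 bases apart with 0 coding genes between them. Cldn1 (ENSMUSG00000022512, chr16:26356642-26371841, minus strand) and Cldn16 (ENSMUSG00000038148, chr16:26463135-26482765, plus strand) lay 91293 bases apart, also with 0 coding genes between them. RefSeq (GRCm38.p6) gave promoter windows of 250 bases before to 50 after the start for 9 of the 10 genes, 12 windows in all. Below, capitals mark the letters TGANTCA of an AP-1 motif and GGGCGG of an Sp1 motif, both searched on both strands. The Cldn4 window is chr5:134946885-134947184 on the minus strand, and the Cldn3 window is chr5:134985964-134986263 on the plus strand.
Cldn4: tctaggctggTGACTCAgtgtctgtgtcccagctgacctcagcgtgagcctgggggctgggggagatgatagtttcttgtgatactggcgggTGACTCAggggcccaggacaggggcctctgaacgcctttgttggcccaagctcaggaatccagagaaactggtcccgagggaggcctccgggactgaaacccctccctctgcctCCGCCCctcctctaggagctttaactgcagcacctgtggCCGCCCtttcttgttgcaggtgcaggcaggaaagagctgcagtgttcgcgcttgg
Cldn3: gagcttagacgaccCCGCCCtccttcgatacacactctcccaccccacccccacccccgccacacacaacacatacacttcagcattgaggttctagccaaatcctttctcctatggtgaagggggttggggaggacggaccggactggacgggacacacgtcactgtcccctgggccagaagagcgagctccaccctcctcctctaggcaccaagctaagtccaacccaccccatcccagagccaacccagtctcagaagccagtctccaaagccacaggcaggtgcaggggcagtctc
The Cldn4 window held 2 AP-1 matches, which began at -240 and -158 from the start (counted as 0), and 2 Sp1 matches. The Cldn3 window held 1 Sp1 match and 0 AP-1 matches. Of all 32851 mouse promoter windows of this length, 7.81% held the AP-1 letters and 35.7% the Sp1 letters, so neither match is rare, and a match of letters is not a binding site.

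Cldn10 (ENSMUSG00000022132, chr14:118787908-118875489, plus strand) had 2 RefSeq starts, far apart in the gene, at chr14:118787621-118787920 and chr14:118854700-118854999. They are printed because transcripts from them encode different isoforms, which the gene counts below add together.
Cldn10, upstream start: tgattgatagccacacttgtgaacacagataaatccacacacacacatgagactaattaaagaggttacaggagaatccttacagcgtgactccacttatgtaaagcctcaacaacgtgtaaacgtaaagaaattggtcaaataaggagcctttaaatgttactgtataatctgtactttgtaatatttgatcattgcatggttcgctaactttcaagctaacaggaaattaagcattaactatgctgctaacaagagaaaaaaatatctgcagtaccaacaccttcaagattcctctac
Cldn10, downstream start: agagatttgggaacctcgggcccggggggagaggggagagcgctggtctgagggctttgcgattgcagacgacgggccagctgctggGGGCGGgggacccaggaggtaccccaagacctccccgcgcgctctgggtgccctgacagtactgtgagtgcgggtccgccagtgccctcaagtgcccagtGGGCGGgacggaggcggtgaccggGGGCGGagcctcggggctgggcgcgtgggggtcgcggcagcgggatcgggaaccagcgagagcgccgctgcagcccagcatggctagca
The upstream window had a GC content of 36% and no match to AP-1 or Sp1. The downstream window had a GC content of 72% and 3 Sp1 matches. None of the 12 windows held the letters of the HNF1 motif (0.0609% of all windows did), 1 held the GRHL letters AACNNGTT (Cldn5, against 4.20%) and 1 the TATA box letters TATAAA (Cldn2, against 13.6%). Motifs within the same window did not overlap.

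Each claudin had most or the largest part of its UMIs in 1 class, and the leading class was the same in both libraries for all 10. In both libraries together, PT cells held 86.3% of Cldn2, 71.9% of Cldn1 and 66.4% of Cldn10 UMIs. PT cells also held 71836174 of the 124679362 control and 68243871 of the 128733541 ischemia UMIs of all genes, so these shares depend on class size. As CPM in the control, Cldn10 was higher in TAL (606) than in PT (208), and Cldn1 was higher in neutrophil-like cells (109) than in PT (5.32). The neutrophil-like class included a small unnamed cluster (c24, described at the end), and 5 cells held 80% of the control Cldn1 UMIs of this class. TAL cells held 71.6% of Cldn16 and 68.4% of Cldn19 UMIs, and a further 21.5% of Cldn10. Collecting duct cells held 65.8% of Cldn4, 44.9% of Cldn7, 43.2% of Cldn8 and 37.7% of Cldn3 UMIs. Endothelial cells held 71.9% of Cldn5 and podocytes 22.5%. As CPM in the control, Cldn7 and Cldn3 were higher in the thin limb (370 and 52.4) than in the collecting duct (284 and 24.3). In the ischemia library they were higher in the collecting duct (484 and 60.5 against 349 and 54.2). Control Cldn5 was higher in podocytes (729 CPM) than in EC (200 CPM). The leading share moved most for Cldn5, from 55.2% (52.9–57.5) of control UMIs to 84.7% (83.2–86.2) of ischemia UMIs, and in the ischemia library fewer podocyte UMIs were captured (338678 against 959733). The share of Cldn10 held by PT cells went from 61.7% (61.1–62.3) to 74.8% (74.1–75.6).

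**Figure D1:**
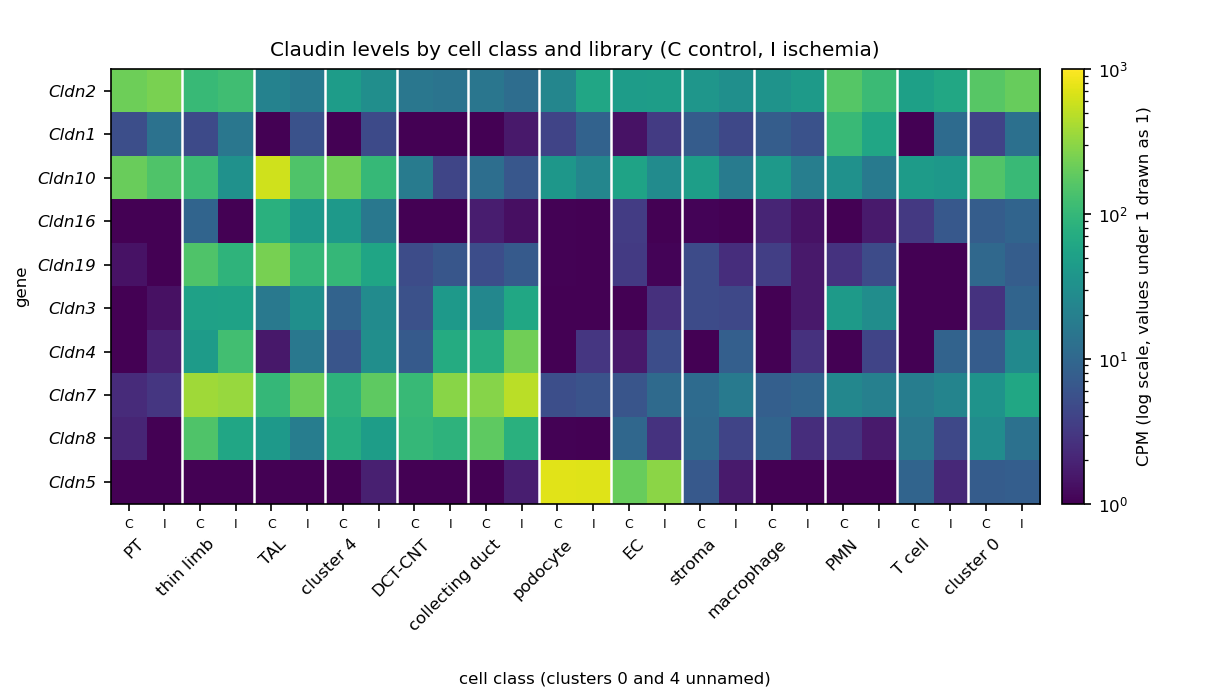
Level of each of the 10 claudins (rows) in each cell class and library (columns) as CPM of summed UMIs, on a logarithmic color scale. Cldn2 and Cldn10 are high in PT, Cldn10, Cldn16 and Cldn19 in TAL, Cldn4, Cldn7 and Cldn8 in the collecting duct, and Cldn5 in podocytes and endothelial cells. Cldn7 is also high in the thin limb.

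Over the 5 tubule classes (PT, thin limb, TAL, DCT-CNT and collecting duct), 40 of the 50 pairs of a claudin and a class held enough UMIs for a ratio. Of these, 11 were at least 2-fold higher and 9 at least 2-fold lower in the ischemia library. Of all genes with a ratio, 4.39% to 7.82% by class were at least 2-fold higher and 3.81% to 7.66% lower. Cldn4 was past 2-fold higher in all 5 tubule classes, and Cldn8 past 2-fold lower in 4 of 5, with DCT-CNT the exception. In PT, neither gene exceeded its level in macrophage-like cells beyond counting error, and those cells should lack both. Also among the calls but not above the macrophage-like level were Cldn19 in PT, Cldn10 in DCT-CNT and Cldn1 in TAL.

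**Figure D2:**
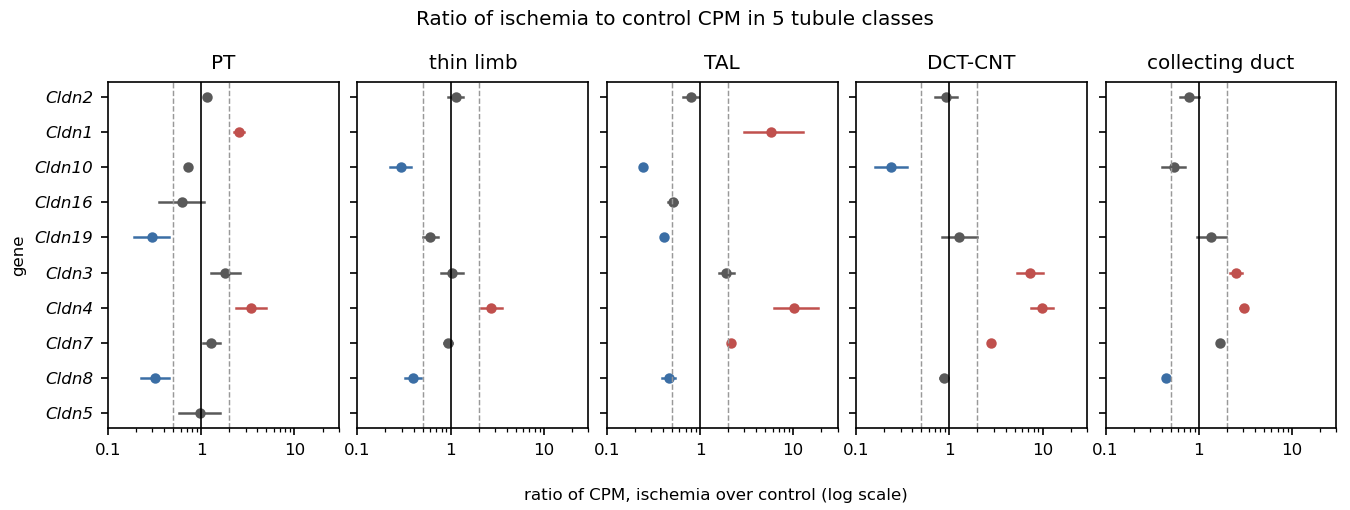
Ratio of ischemia to control CPM of each claudin in the 5 tubule classes on a logarithmic axis, with bars for the 95% counting interval, dashed lines at 0.5 and 2, red for at least 2-fold higher, blue for at least 2-fold lower and grey between. Cldn4 lies above 2 in every panel, and in TAL the ratios of Cldn10 and Cldn19 lie below 0.5 while those of Cldn4, Cldn1 and Cldn7 lie above 2.

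In PT cells the pore claudins Cldn2 and Cldn10 moved in opposite directions by less than 2-fold, and the low level of Cldn1 was higher after ischemia. Cldn2 (ENSMUSG00000047230, chrX:139800828-139811386, plus strand), which forms the cation and water pore of the proximal tubule, was at 215 CPM (212–219) in control cells and 246 CPM (242–250) in ischemic cells, a ratio of 1.14 (1.12–1.17). Cldn10 was at 208 CPM (204–211) and 149 CPM (146–152), for a ratio of 0.716 (0.698–0.734). Without integration of the libraries the ratio of Cldn10 was 1.01 and that of Cldn2 1.05, so the opposite directions were not seen there. That setting named fewer cells PT, 2749 control and 548 ischemia cells against 3932 and 2837. Cldn1, a sealing claudin of many epithelia, was at 5.32 CPM (4.80–5.88) and 13.4 CPM (12.5–14.3), for a ratio of 2.52 (2.23–2.84), which came to 1.94 as the mean over cells and to 1.17 without integration of the libraries. Its control level did not exceed that of macrophage-like cells (7.66 CPM, 4.29–12.6), and its ischemia level did (5.66 CPM, 3.87–7.997). In the macrophage-like class of the ischemia library, 5 cells held 65.6% of the Cldn1 UMIs. The median ratio over all 13544 genes with enough UMIs in PT was 1.08, and the ratio of Cldn2 lay at the 56.9th percentile of these genes, that of Cldn10 at 11.6 and that of Cldn1 at 95.7.

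Of the 10 claudins with a ratio in PT, 2 were at least 2-fold higher (Cldn1 and Cldn4), against 6.92% of all genes, and 2 at least 2-fold lower (Cldn8 and Cldn19), against 3.81%. Cldn4, Cldn8 and Cldn19 were near 1 CPM there, with 0.557 and 1.91 CPM of Cldn4, 2.05 and 0.659 CPM of Cldn8, and 1.42 and 0.425 CPM of Cldn19. In macrophage-like cells of the same libraries Cldn4 was at 0.511 and 2.66 CPM, Cldn8 at 9.20 and 2.48 CPM and Cldn19 at 3.58 and 1.59 CPM, so these 3 were not read as PT expression. Cldn2 was detected in 73.1% of control and 76.7% of ischemic PT cells, and in 16.9% and 19.1% after each cell was thinned to 1000 UMIs. Cldn10 was detected in 78.0% and 72.9%, and in 19.0% and 13.7% after thinning. In macrophage-like cells, which should lack both, 15.9% and 18.6% had a Cldn2 UMI and 15.5% and 10.9% a Cldn10 UMI at median depths of 5150 and 8264 UMIs, against 13598.5 and 17368 in PT. Cldn1 was found in 8.19% and 19.4% of PT cells and in 0.449% and 1.52% after thinning.

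The same claudins were split by PT segment and by Havcr1, the gene of the injury marker KIM-1. In cells with more UMIs of early (S1-S2) markers, Cldn2 was at 215 and 243 CPM and Cldn10 at 206 and 151 CPM. In cells with more UMIs of late (S3) markers, Cldn2 was at 223 and 263 CPM and Cldn10 at 215 and 138 CPM. The ratio of Cldn10 was thus 0.729 (0.709–0.7496) in S1-S2 and 0.643 (0.601–0.688) in S3 cells, and both claudins were present at both ends of the PT. Of 6769 PT cells, 538 had too few markers for a segment and 223 were 1 UMI from the limit.

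Havcr1 in PT went from 7.14 CPM (control) to 417 CPM (ischemia). In PT cells without a Havcr1 UMI (3750 and 926 cells), Cldn1 was at 4.89 and 6.51 CPM, a ratio of 1.33 (1.04–1.69). In those with 3 or more Havcr1 UMIs (32 and 1159 cells), Cldn1 was at 24.7 and 17.6 CPM, a ratio of 0.711 (0.462–1.16). Most Cldn1 UMIs of ischemic PT, 716 of 913, came from these Havcr1-high cells, which held 40770632 of the 68243871 UMIs of ischemic PT. Within each of these groups the libraries differed in Cldn1 by less than 2-fold. The ratio of Cldn2 differed among these groups, at 1.01 (0.971–1.05) in cells without a Havcr1 UMI, 0.826 (0.771–0.885) in those with 1 or 2, and 1.43 (1.22–1.69) in those with 3 or more. The control levels behind these ratios were 212, 282 and 182 CPM, the last from 155 UMIs of 32 cells. The ischemia levels were 214, 233 and 261 CPM. A Cldn2 ratio above 1 beyond counting error was thus seen in the Havcr1-high cells alone, and it rests on those few control cells. Cldn10 was 0.851 (0.815–0.889) times the control level in cells without Havcr1, 0.764 (0.707–0.825) in those with 1 or 2 UMIs and 0.871 (0.730–1.05) in those with 3 or more. Cells with more Havcr1 UMIs were also deeper cells in part by construction, and 264 PT cells had exactly 2 and 164 exactly 3 such UMIs, next to the limit.

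UMIs of Cldn2 and Cldn10 were also found in classes outside the tubule. The UMIs of Cldn2 over those of Cldn10 were 1.04 in control PT, 0.824 in EC, 0.829 in macrophage-like cells, 0.622 in podocytes and 1.08 in cluster 0, but 4.92 in neutrophil-like cells. In the ischemia library the same values were 1.65 in PT, 1.69 in EC, 2.27 in macrophage-like cells, 2.50 in podocytes (from 20 and 8 UMIs), 1.84 in cluster 0 and 6.43 in neutrophil-like cells. In TAL they were 0.0355 and 0.116. DCT-CNT had 0.857 and 3.31 (the last from 106 and 32 UMIs) and the collecting duct 1.25 and 1.83. The neutrophil-like class includes the unnamed cluster c24, and 5 cells held 76.3% of the control Cldn2 UMIs of that class. Outside the neutrophil-like cells and cluster 0, both genes stayed at or below 62.7 CPM in the non-tubule classes, in DCT-CNT and in the collecting duct, and how much of this was free RNA was not tested. In cluster 0 Cldn2 was at 164 and 198 CPM and Cldn10 at 152 and 108 CPM.

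Thin limb cells had 7 claudins with enough UMIs, among them Cldn4, which was higher after ischemia, and Cldn8 and Cldn10, which were lower. One of the 7 was at least 2-fold higher, against 4.39% of all genes, and 2 were at least 2-fold lower, against 7.15%. Cldn4 was at 44.9 CPM (35.4–56.1) and 122 CPM (109–137), for a ratio of 2.72 (2.12–3.55), which came to 1.86 with a minimum of 1000 UMIs per cell. Cldn8, a partner of CLDN4 in the distal nephron, was at 150.3 and 59.5 CPM, a ratio of 0.396 (0.321–0.487). Cldn7 was at 370.0 and 349 CPM, Cldn3 at 52.4 and 54.2 CPM and Cldn2 at 105 and 119 CPM, and the intervals of these 3 ratios include 1. Cldn19 was at 148 and 89.4 CPM, a ratio of 0.604 (0.502–0.727).

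Split by markers of the descending and the ascending thin limb, the Cldn4 difference lay mostly in the descending cells. In the 38 and 42 descending cells Cldn4 was at 6.97 CPM and 112 CPM, for a ratio of 16.02 (7.22–44.2). In the 48 and 33 ascending cells it was at 83.2 CPM and 145 CPM, for a ratio of 1.74 (1.28–2.37). In the control kidney Cldn4 UMIs thus lay mostly in ascending cells (71 against 6 in descending cells). In the ischemic one Cldn4 was found in both kinds, in 66.7% and 63.6% of cells. Few cells weighed heavily here, as 5 cells carried 48.1% of control and 5 cells 45.7% of ischemia thin limb UMIs of Cldn4. Cldn10 was at 199 CPM in ascending cells of the control and 6.29 CPM after ischemia, but 5 cells carried 89.8% of all control and 5 cells 89.0% of all ischemia thin limb UMIs of this gene, and its ratio in the class (0.291) rests on them. In descending cells Cldn10 went the other way, from 30.2 to 46.0 CPM, for a ratio of 1.52 (0.965–2.48). The urothelium list summed to 269 CPM in control and 0 CPM in ischemia thin limb cells, with 4 of its 6 markers at 0 in both, and its part in these values was not tested.

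In TAL cells Cldn10 and Cldn19, claudins of this segment, and the distal claudin Cldn8 were lower after ischemia. The distal claudins Cldn4 and Cldn7 were higher. The sealing claudin Cldn1 was also called higher, at levels that did not exceed those of macrophage-like cells. Of 9 claudins with a ratio, 3 were at least 2-fold lower (Cldn10, Cldn19 and Cldn8), against 7.66% of all 11231 genes, and 3 at least 2-fold higher (Cldn4, Cldn1 and Cldn7), against 7.82%. Cldn10, of which an isoform makes the cation pore of this segment, was at 606 CPM (592–622) in the control kidney and 147 CPM (141–154) in the ischemic one. It was 4.11-fold lower (3.90–4.33), the largest decrease among the claudins of this class, and its ratio stayed between 0.206 and 0.262 in all alternatives. Cldn19 (ENSMUSG00000066058, chr4:119255414-119262438, plus strand), mutated, like CLDN16, in a human magnesium wasting disorder, was at 244 CPM (234–253) and 100.2 CPM (94.8–106), 2.43-fold lower (2.27–2.60). Cldn16 was at 80.7 CPM (75.3–86.4) and 41.0 CPM (37.6–44.7), 1.97-fold lower (1.76–2.20), just under the 2-fold limit, and its ratio of 0.509 lay between 0.475 and 0.538 in the alternatives.

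The share of TAL cells with a UMI went the same way. Cldn10 was detected in 78.9% of control and 61.7% of ischemic TAL cells, Cldn19 in 88.4% and 69.8%, and Cldn16 in 52.5% and 42.2%, where the median depths were 20064 and 24673 UMIs. With each cell thinned to 1000 UMIs, the shares were 37.8% and 10.31% for Cldn10, 22.2% and 8.25% for Cldn19, and 8.54% and 2.89% for Cldn16. In macrophage-like cells at most 1.52% had a UMI of Cldn16 or of Cldn19. Other genes of the segment were looked up beside them. Slc12a1, the Na-K-2Cl cotransporter, was at 5209 and 497 CPM (10.5-fold lower), Kcnj1, the apical potassium channel, at 331 and 89.8 CPM (3.68-fold lower), and Umod at 12970.2 and 8344 CPM (1.55-fold lower). Egf fell furthest of the genes looked up, at 2797 and 57.2 CPM (48.9-fold lower). The decrease of the 3 claudins thus lay between those of Umod and Slc12a1. The injury gene Lcn2 was at 420.4 and 5279.7 CPM in the same cells.

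Cldn4 was at 1.55 CPM (0.888–2.52) in control TAL, from 16 UMIs, and 15.9 CPM (13.8–18.3) in ischemic TAL, a ratio of 10.26 (6.16–18.3), which came to 4.98 with at most 25% mitochondrial UMIs. In the control this is near the level in macrophage-like cells (0.511 CPM, upper limit 2.85), and in the ischemia library it lies above it (2.66 CPM, upper limit 4.38). Cldn7 (ENSMUSG00000018569, chr11:69964779-69967885, plus strand), a claudin also found along the lateral membrane, was at 101 CPM (94.8–107) and 214 CPM (206–223), for a ratio of 2.12 (1.98–2.28). That of Cldn7 was 1.83 with at most 25% mitochondrial UMIs, where the call was lost, and that of Cldn1 was 1.80 there. Cldn3, a sealing claudin, was at 16.4 and 31.3 CPM, a ratio of 1.91 (1.59–2.30). Cldn1 was at 0.971 CPM, from 10 UMIs, and 5.66 CPM, a ratio of 5.83 (2.99–12.7). Macrophage-like cells of the ischemia library had as much Cldn1 (5.66 CPM), of which 5 cells held 65.6%. Cldn8 (ENSMUSG00000050520, chr16:88560828-88563183, minus strand) was at 40.4 and 18.6 CPM, a ratio of 0.460 (0.390–0.541). The neighbors Cldn1 and Cldn16 on chromosome 16 thus had ratios on opposite sides of 1, with Cldn1 at or below the macrophage-like level.

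Within TAL, some cells had mostly Cldn10 and others mostly Cldn16 and Cldn19. More than 50% of the cells counted lay between, with Cldn10 beside Cldn19, Cldn16 or both. The UMIs of Cldn10, Cldn16 and Cldn19 were counted in the 420 control and 274 ischemia TAL cells with at least 5 of them. Cldn10 gave at least 80% of these UMIs in 25.5% of control cells and at most 20% in 22.4%. In the ischemia library the corresponding shares were 21.9% and 24.8%. The other cells, 52.1% and 53.3%, lay between, with Cldn10 at 639 and 211 CPM, Cldn16 at 65.9 and 28.2 CPM and Cldn19 at 284 and 140.3 CPM. All of them had a Cldn10 UMI, which their range of shares requires. A Cldn19 UMI was found in 99.5% and 99.3% of them, and one of Cldn16 in 60.3% and 44.5%. In the control the distribution had a peak below 10% (72 cells) and another from 70 to 90%, with 12 to 19 cells in each bin of 10 points from 10 to 50%. The pooled share of Cldn10 was 65.5% of control UMIs and 52.7% of ischemia UMIs. The level of this share depends on how well each transcript is captured, so only its variation among cells is described. Of the 694 cells, 178 lay within 5 percentage points of a limit.

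**Figure D3:**
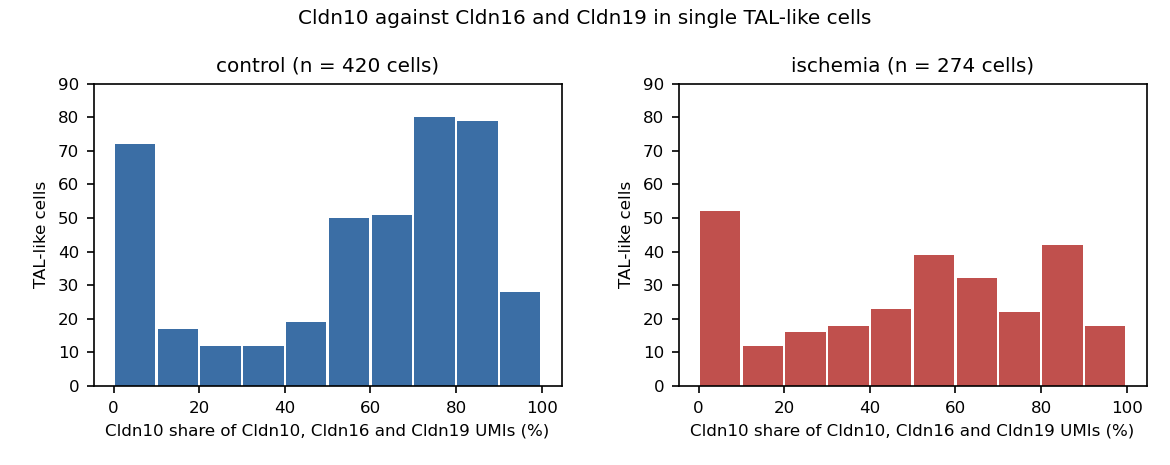
Number of TAL cells by the share of Cldn10 among their UMIs of Cldn10, Cldn16 and Cldn19 (in %), for the 420 control and 274 ischemia cells with at least 5 such UMIs. Both libraries have a peak below 10%, with 72 and 52 cells, and a broad group from 50 to 90%.

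Cells at both ends were compared, which describes the split and tests nothing, since these claudins defined it. On the Cldn10 side (107 and 60 cells), Cldn16 was at 13.4 and 6.27 CPM, and on the other side (94 and 68 cells) at 212 and 124 CPM. Cldn19 was at 169.6 and 43.9 CPM on the Cldn10 side and at 275 and 160.2 CPM on the other. Cldn10 on its own side was at 1159.7 and 334 CPM, so it was also lower after ischemia in the cells chosen for it. A Cldn16 UMI was found in 48.1% of control TAL cells with Cldn10 and in 69.2% of those without it, and in the ischemia library in 35.7% and 52.7%. A Cldn19 UMI went the other way, with 92.3% and 74.0% in the control and 81.3% and 51.1% in the ischemia library. Cldn10 was thus detected more often with Cldn19 than without it, and less often with Cldn16, in both libraries, without adjustment for depth.

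Other genes also differed between the sides. Scel, Ptgds, Nccrp1, Pla2g7 and Aldoc had the highest ratio on the Cldn10 side, led by Scel at 23.7 against 0.485 CPM over both libraries. Nrxn3, Tmem52b, Slc34a2, Foxq1 and Scarf2 had the lowest, led by Nrxn3 at 6.52 against 271 CPM. These directions held in each library, as Nrxn3 was at 10.1 against 392 CPM in the control and 2.09 against 158 CPM in the ischemia library. Casr, the calcium-sensing receptor that regulates calcium uptake here, was at 69.8 CPM on the Cldn10 side and 167 CPM on the Cldn16-Cldn19 side. Egf was at 714 and 2567 CPM, and Slc12a1 at 3274 and 2622 CPM, so both sides carried the cotransporter. Median depths were 21847 and 21335 UMIs on these sides in the control, and 29697 and 28424 in the ischemia library.

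Cldn14, a claudin outside the 10 that blocks the CLDN16-CLDN19 pore and is known to be switched on by calcium sensing, was in the list of other claudins. In TAL it had 19 control and 1066 ischemia UMIs, at 1.84 CPM (1.11–2.88) and 84.9 CPM (79.9–90.2), for a ratio of 46.0 (29.3–76.8). It was found in 11 of 493 and 125 of 486 cells, and 5 cells held 23.6% of its ischemia UMIs. The ratio lay between 35.6 and 186 in the alternatives, the last of these from 1 control UMI. In the ischemia library Cldn14 was at 32.9 CPM on the Cldn10 side and 136 CPM on the Cldn16-Cldn19 side. There, 5 cells held 88.9% of its UMIs on the Cldn10 side and 42.6% on the other. PT had 0 control and 18 ischemia UMIs of Cldn14, the collecting duct 1 and 42, and DCT-CNT 0 and 14. Cluster 4 had 9 and 82, and the thin limb 0 in both libraries. Of the 14 other claudins in that list, 3 had a ratio in PT and 2 in TAL, and the only other one past 2-fold was Cldn18 in PT, at 0.543 and 0.220 CPM.

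Of 22 listed genes of junction proteins and of regulators such as Wnk4 and Casr, 20 had a ratio in TAL. Of these, 4 were lower past 2-fold, against 7.66% of all genes, and 1 was higher past 2-fold, against 7.82%. Their median ratio was 0.951 against 1.07 for all genes. The lower ones were Cgnl1, encoding paracingulin, at 516 and 216 CPM, Esam at 30.1 and 9.004 CPM, Wnk4, a kinase that regulates distal salt transport, at 139.5 and 36.4 CPM, and Casr at 163 and 55.9 CPM. Ocln, which encodes occludin, was at 54.96 and 49.5 CPM. In the collecting duct 2 of 19 were lower, against 4.0% of all genes, and in DCT-CNT 2 of 19, against 5.06%, with Wnk4 among them in both. In PT 1 of 20 was lower, against 3.81%, and in the thin limb 2 of 16, against 7.15%. None of the genes of this list was past 2-fold higher in these 4 classes, where 4.39% to 6.92% of all genes were.

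The distal claudins Cldn3 and Cldn4 were past 2-fold higher after ischemia in both DCT-CNT and collecting duct cells, Cldn7 in DCT-CNT, and Cldn8 was past 2-fold lower in the collecting duct. In DCT-CNT, 3 of 7 claudins were at least 2-fold higher, against 6.31% of all genes, and 1 was at least 2-fold lower (Cldn10, at 17.9 and 4.27 CPM, below the macrophage-like level, and 2.25-fold higher without integration), against 5.06%. Cldn4 was at 7.13 CPM (5.49–9.11) and 70.2 CPM (64.3–76.5), for a ratio of 9.85 (7.58–13.0), and the alternatives gave 3.66 to 23.4. Its neighbor Cldn3 was at 5.57 CPM (4.13–7.34) and 40.4 CPM (36.0–45.3), for a ratio of 7.26 (5.37–10.0), which came to 2.95 without integration. Both neighbors, whose promoters are printed above, were thus higher together here. Cldn7 was at 105 and 293 CPM, a ratio of 2.79 (2.58–3.01), which came to 1.82 without integration. Cldn8 was at 100.2 and 86.9 CPM, a ratio of 0.868 (0.783–0.961) and 0.474 without integration, the smallest difference of the distal claudins.

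In cells with more UMIs of DCT markers (320 and 243), Cldn4 was at 2.64 and 56.3 CPM, a ratio of 21.3 (12.9–37.9). In cells with more of CNT markers (141 and 106), it was at 16.5 and 98.6 CPM, a ratio of 5.98 (4.37–8.32). As a ratio, the level thus differed more between these segments in the control, where DCT cells had 16 UMIs, than after ischemia. As a difference in CPM it differed less in the control. A Cldn4 UMI was found in 3.75% and 37.4% of DCT and in 27.0% and 57.5% of CNT cells, and in 0.305% and 2.25% of macrophage-like cells. Thinned to 1000 UMIs, the shares of the whole class were 0.437% and 6.34%. Cldn3 had ratios of 8.25 (5.67–12.4) in DCT and 5.53 (3.30–9.78) in CNT cells. Only 6 of 813 cells were 1 UMI from the limit between both segments.

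In the collecting duct, 2 of 7 claudins were at least 2-fold higher (Cldn4 and Cldn3), against 5.70% of all genes, and 1 at least 2-fold lower (Cldn8), against 4.0%. Cldn4 was at 74.0 CPM (68.9–79.4) and 224 CPM (215–232), for a ratio of 3.02 (2.79–3.28). Cldn3 was at 24.3 CPM (21.4–27.5) and 60.5 CPM (56.2–65.1), for a ratio of 2.49 (2.16–2.89), and Cldn7 at 284 and 484 CPM, a ratio of 1.70 (1.63–1.78). Cldn8 was at 180.3 CPM (172–189) and 80.5 CPM (75.5–85.7), for a ratio of 0.446 (0.413–0.483). CLDN4 and CLDN8 are known to interact in the collecting duct, and here their ratios lay on opposite sides of 1. After thinning, Cldn4 was found in 8.48% and 13.96%, Cldn7 in 18.1% and 33.9% and Cldn8 in 14.2% and 6.64% of cells.

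At the finer resolution of 0.6 the collecting duct split into principal cells (cluster c12) and 2 clusters of intercalated cells, c17 with Slc4a1, Kit and Aqp6 and c22 with Slc26a4. All 3 clusters showed the same directions. Cldn4 was at 86.4 and 251 CPM in c12, a ratio of 2.91 (2.67–3.16). It was at 30.8 and 129 CPM in c17, a ratio of 4.19 (2.90–6.21), and at 26.4 and 79.6 CPM in c22, a ratio of 3.02 (1.94–4.81). Principal cells thus had the highest Cldn4 of the 3 in both libraries. Cldn8 was at 176 and 83.8 CPM in c12, 191 and 77.0 CPM in c17, and 197 and 52.0 CPM in c22, levels that were close in the control. Its ratio was lowest in c22, at 0.264 (0.189–0.361), against 0.475 (0.435–0.518) in c12. Cldn3 was near 60 CPM after ischemia in each of them, with 60.7, 60.7 and 58.4 CPM.

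**Figure D4:**
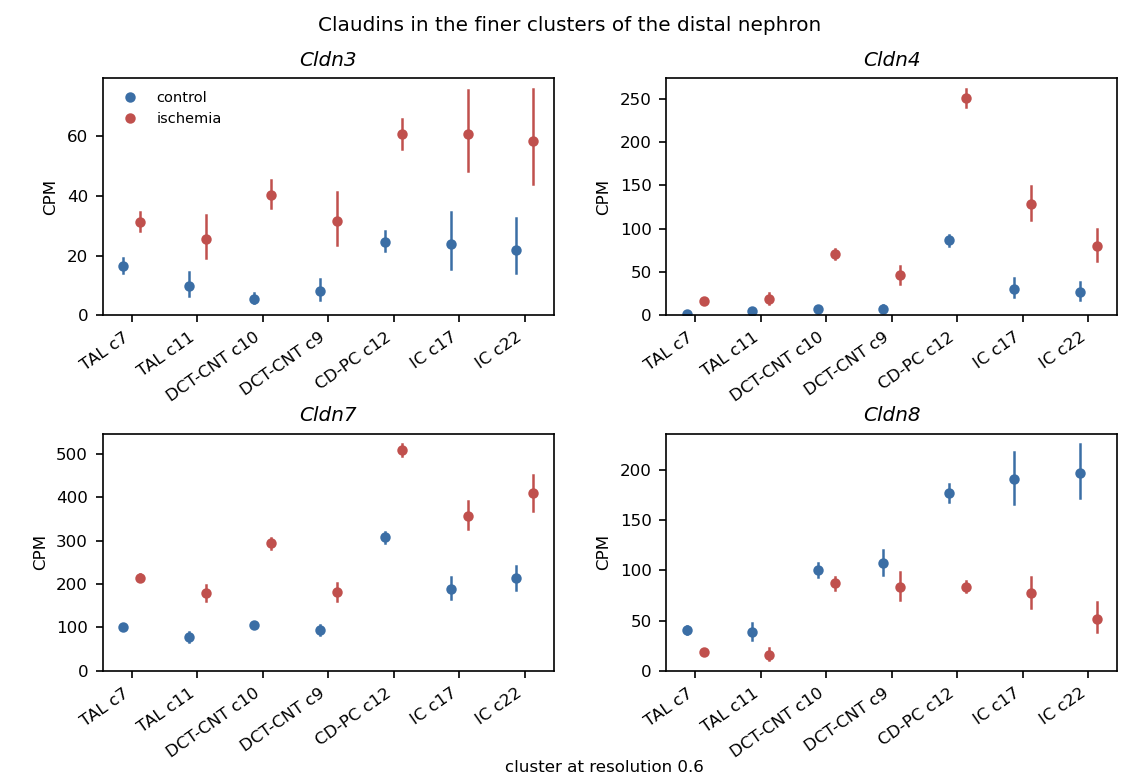
CPM of Cldn3, Cldn4, Cldn7 and Cldn8 in the control and ischemia libraries in 7 clusters of the distal nephron at resolution 0.6, with 95% counting intervals. Cldn3, Cldn4 and Cldn7 are higher and Cldn8 is lower in ischemia in each cluster of the collecting duct, with Cldn8 closest between the libraries in both DCT-CNT clusters.

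In the unnamed cluster 4, Cldn10 and Cldn16 were past 2-fold lower and Cldn3, Cldn4 and Cldn7 higher, at lower depth. Of 8 claudins with a ratio, 3 were at least 2-fold higher (Cldn4 at 4.97, Cldn3 at 3.19 and Cldn7 at 2.10), against 6.59% of all genes, and 2 at least 2-fold lower (Cldn16 at 0.386 and Cldn10 at 0.458), against 4.75%. Cldn19 (0.573) and Cldn8 (0.616), which were past 2-fold lower in TAL, were not so here. The median ratio of all genes was 1.09 in this cluster. At resolution 0.6 it mostly divided into c11, named TAL, and c9, named DCT-CNT. In c11 Cldn10 was at 426 and 155 CPM, a ratio of 0.365 (0.321–0.414), Cldn16 at 83.6 and 27.6 CPM and Cldn19 at 204 and 99.8 CPM. In c9 Cldn4 was at 7.31 and 45.9 CPM, a ratio of 6.28 (3.80–10.8). These clusters were shallower than those first named TAL and DCT-CNT, and the directions of these claudins were the same in them. The unnamed cluster 0, the largest and shallowest, held claudins of many segments. Of 10 claudins with a ratio there, 3 were at least 2-fold higher (Cldn1, Cldn3 and Cldn4), against 8.33% of all genes, and 1 at least 2-fold lower (Cldn8), against 2.04%.

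Cldn5 (ENSMUSG00000041378, chr16:18776847-18778262, plus strand), the claudin of endothelium and of podocytes, was higher after ischemia in endothelial cells by less than 2-fold and did not differ beyond counting error in podocytes. In EC it was at 200.3 CPM (188–213) and 303 CPM (290–317), for a ratio of 1.51 (1.40–1.63), and the alternatives gave 1.08 (mean over cells) to 2.33 (a gate on marker UMIs). Of 5 claudins with a ratio in EC, 0 were at least 2-fold higher, against 1.92% of all genes, and 1 lower (Cldn8, near the macrophage-like level), against 3.52%. In podocytes Cldn5 was at 729 CPM (676–785) and 706 CPM (619–801), for a ratio of 0.968 (0.832–1.12), where 0.871% of all genes were past 2-fold higher and 2.21% past 2-fold lower. A Cldn5 UMI was found in 46.5% and 48.6% of podocytes, and 5 cells carried 33.4% and 49.0% of its UMIs. In TAL cells, which should lack it, 0.609% and 0.823% had one.

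Within EC, Cldn5 lay mostly in cells with arterial markers (Sox17, Gja5 and Gja4). In these 117 and 124 cells it was at 675 and 979 CPM, a ratio of 1.45 (1.34–1.58), and they held 840 of 1000 and 1749 of 1996 EC UMIs. The difference was uneven among cells, as 1 ischemia cell carried 183 UMIs and 5 cells 32.7% of the total. In 586 and 660 cells with Plvap, which marks peritubular capillaries, it was at 45.7 and 45.4 CPM, a ratio of 0.995 (0.791–1.25). In cells with Ehd3, which marks glomerular capillaries, it was at 41.0 and 41.3 CPM. Arterial cells were positive in 56.4% and 61.3%, peritubular cells in 4.95% and 6.36%. The EC ratio thus came with the arterial cells. Of 1946 EC, 362 had no call and 65 were 1 UMI from the limit.

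**Figure D5:**
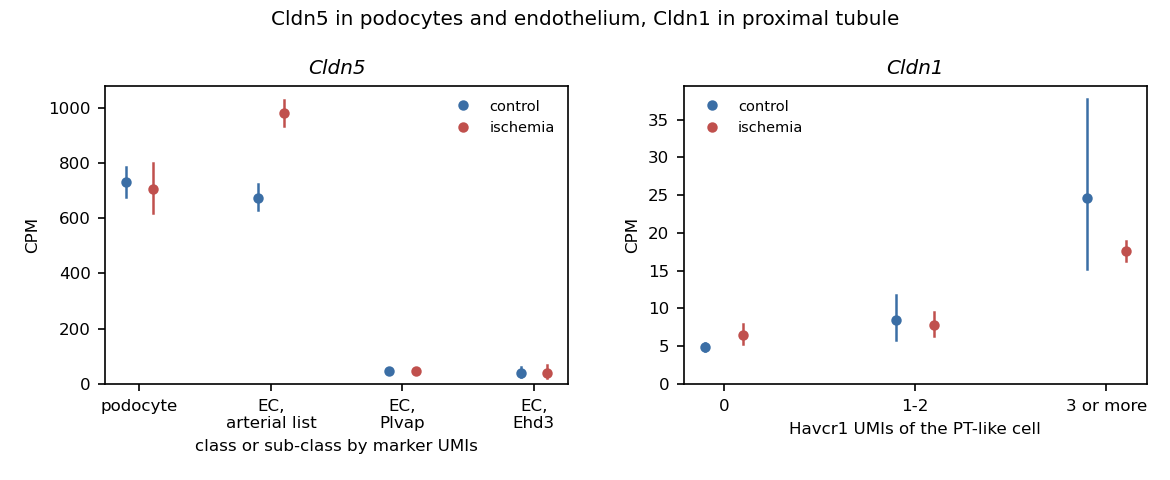
CPM of Cldn5 in podocytes and in endothelial cells by their markers, and of Cldn1 in PT cells by their Havcr1 UMIs, in both libraries with 95% counting intervals. Cldn5 is higher in ischemia in arterial cells (675 and 979 CPM) and near 45 CPM in peritubular cells of both libraries, and Cldn1 is highest in PT cells with 3 or more Havcr1 UMIs.

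For each claudin, the 3 genes whose levels followed it most closely were sought over 22 points, the 11 named classes in each library. Pearson's r on log2(CPM + 1) is a description here, since points of 1 library share its depth and free RNA and classes share clustering. The closest were Kcnk5 for Cldn2 (0.946), a potassium channel of the proximal tubule, Slc9a3 for Cldn10 (0.878), the apical sodium-proton exchanger, and Hspbap1 for Cldn1 (0.848). For the TAL claudins they were Slc12a1 for Cldn16 (0.794) and Irx1 for Cldn19 (0.914), a transcription factor gene of nephron patterning. For the distal claudins they were Epcam for Cldn7 (0.965), whose protein binds CLDN7, Ckmt1 for Cldn8 (0.967) and Rab15 for Cldn4 (0.880), with Grhl2, a regulator of epithelial claudins, the third for Cldn4 (0.8499). For Cldn5 it was Sema3g (0.976), over points that did not separate arterial from other EC and in which podocytes had the highest Cldn5. Among the claudins themselves, Cldn7 and Cldn8 were closest (0.88), followed by Cldn4 and Cldn7 (0.84) and Cldn3 and Cldn7 (0.83).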

How the data were processed

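Single cell RNA sequencing was done by the authors on 1 control and 1 ischemic kidney. Per the labels, reads were processed with Cell Ranger 7.0.0 on mm10. The deposited UMI counts per gene and barcode are raw counts and were neither normalized nor filtered for cell quality by the authors. They hold 15110 control and 15257 ischemia barcodes.

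Cells were kept with at least 200 genes, between 500 and 150000 UMIs, and mitochondrial UMIs of 55% or less. This removed 2524 and 2141 barcodes. Seurat 5.3.0 in R 4.3.3 normalized each library to 10000 UMIs per cell, took 2000 variable genes without the 10 claudins, integrated both libraries by anchors, and clustered on 30 components at resolution 0.3 (seed 42), and at 0.6 for finer clusters. A cluster took the name of its best-scoring marker list. At least 3 of these markers had to be detected, and some had to lie among its 20 leading genes. Clusters of low depth needed an own marker among their 10 leading genes. A cluster stayed unnamed if another list had markers among those 10, and at least 0.5 times as many as its own list. Principal and intercalated markers together gave the collecting duct name instead. Details of that rule were set after the clusters were seen. Sub-classes needed at least 2 UMIs of a marker list and more than of any other list of the class. The members, marker lists and gene lists were chosen with earlier results of these data known.

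UMIs were summed over the cells of a class and scaled to CPM, with exact Poisson intervals. Ratios have exact conditional binomial intervals and shares Clopper-Pearson intervals, all at 95%. UMIs within a cell are not independent of each other, so intervals cover no more than counting error. A group of cells without a UMI of a gene can still hold up to 3 counts. The fold limit was 2, with at least 50 UMIs over both libraries and 20 cells in each. With 1 library per condition there were no replicates, no test was run and cells were not used as replicates. Shares of positive cells were repeated after thinning each cell at random to 1000 UMIs, which left out 147 control and 69 ischemia PT cells and at most 54 cells of any other class named in the text. Sums, intervals and thinning were computed in Python 3.11.15 (scipy 1.17.1, numpy 2.4.6, pandas 2.3.3). The intervals were tested on simulated TAL counts of 11261 genes, of which 200 were changed 4-fold. The interval held the true ratio for 95.5% of genes, 100% of changed genes were past 2-fold, and 0.0723% of unchanged genes were. The simulated counts followed the counting model that the intervals assume, with no clumping in cells and no spread between kidneys. This checks the computation only and gives no rate of false calls in these data.

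Genes named beside the 10 are the 3 with the most similar levels over 22 points for each claudin (at least 200 UMIs), list members past 2-fold in a tubule class, and the 5 highest and 5 lowest ratios between TAL cells with at least 80% and at most 20% Cldn10 (at least 100 UMIs). Cluster genes, Havcr1, Slc12a1, Kcnj1, Umod, Egf, Lcn2 and Ocln were looked up after values were seen. Some genes that these rules name are not reported here. Positions are from GENCODE M21 (GRCm38), which holds 32235 of the listed identifiers. The alternatives run were 25% as the highest mitochondrial share, at least 1000 UMIs per cell, no integration, resolution 0.6, the claudins kept among the variable genes, a gate on marker UMIs, CPM averaged over cells, scaling to the class median ratio, and a minimum of 10 UMIs per gene. Scrublet in scanpy 1.11.5 called 0 doublets in both libraries, so the 8% of cells with the highest scores were left out instead, an alternative chosen after seeing the data.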

Additional observations from a re-analysis of the deposited data

How the results depend on the processing

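No paired analysis was possible because each condition had 1 library and the labels give no replicate numbers, and for the same reason no library could be left out in turn. Of 210 recomputed ratios of claudins past 2-fold, 197 stayed past it and 13 did not, of which 1 reversed. The number of claudins past 2-fold in a class stayed within 1.5 times in 85 of 100 cases. With at most 25% mitochondrial UMIs, 1 claudin in place of 3 was called higher in TAL and 2 in place of 1 lower in the collecting duct. With at least 1000 UMIs per cell, 0 in place of 1 was called higher in the thin limb and 2 in place of 1 lower in the collecting duct. Without integration, PT had 1 higher and 1 lower in place of 2 and 2, DCT-CNT had 5 higher in place of 3, and the ratio of Cldn10 in DCT-CNT reversed from 0.238 to 2.25. With a gate on marker UMIs, PT had 1 lower in place of 2, the thin limb 2 higher and 1 lower in place of 1 and 2, DCT-CNT 0 lower in place of 1, and the collecting duct 2 lower in place of 1. With CPM averaged over cells, PT had 1 lower in place of 2. With at least 10 UMIs per gene, 2 in place of 1 were called higher in the thin limb and 4 in place of 2 in the collecting duct, since more genes were then given a ratio. The share of TAL cells between both sides was 52.6%, 56.6% with at least 10 UMIs of the 3 genes and 20.0% after thinning to 1000 UMIs, where few such UMIs are left per cell. The share of UMIs in the leading class moved most without integration, for example from 65.8% to 5.19% for Cldn4 in the collecting duct, from 86.3% to 43.4% for Cldn2 in PT and from 71.9% to 20.2% for Cldn1 in PT, and fewer cells were then given these names (158 and 130 collecting duct cells, 2749 and 548 PT cells). For the other changes the cause was not tested. Leaving out the called doublets was not run, since 0 were called, and leaving out the highest scores changed no number of calls by more than 1.5 times. Few cells limited the thin limb (87 control and 76 ischemia) and podocytes (99 and 72), and low depth per cell limited cluster 0.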

Other observations

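At resolution 0.6 a small cluster of 14 control and 18 ischemia cells (c24) carried claudins of several segments at once. It had no cell type name, and its leading genes were Tnc, Kcnmb2, Igfbp2, Ncam1, Pcp4, Stc2, Cdh6, Wnt16, Dkk3 and Cp. Cldn1 was at 163 CPM (control) and 201 CPM (ischemia), Cldn2 at 228 and 219 CPM, and Cldn3 at 65.2 and 88.6 CPM. Cldn7 was at 36.6 and 38.4 CPM, and Cldn4, Cldn5, Cldn8 and Cldn16 had 0 UMIs in both libraries. At resolution 0.3 cells of this cluster were part of the neutrophil-like class, which had 109 and 60.4 CPM of Cldn1.

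In the unnamed cluster 0, Cldn4 was at 7.47 and 26.8 CPM, a ratio of 3.59 (2.55–5.17), and Cldn8 at 28.6 and 13.3 CPM, a ratio of 0.465 (0.349–0.615). The median ratio over all genes of this cluster was 1.22. Its median depths were 894 and 796 UMIs per cell, and how many of these UMIs were free RNA was not tested.

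Among the 22 other claudin symbols listed, Cldn12 had 2034 control and 2232 ischemia UMIs, Cldn15 had 616 and 893, and Cldn34c1 had 262 and 362.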
